A study of Mus musculus with 4 samples.

Results

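The genes described are the large enzyme families that chemically modify foreign compounds, measured in single cells from the mouse intestine. All genes were taken whose symbol begins with Cyp2, Cyp3a, Ugt1a, Ugt2b, Gsta, Gstm, Gstp, Gstt, Sult1, Ces1 or Ces2 and does not end in -ps, which gave 120 of the 28694 genes in the deposited tables. By family these were 49 Cyp2, 9 Cyp3a, 9 Ugt1a, 7 Ugt2b, 4 Gsta, 7 Gstm, 2 Gstp, 4 Gstt, 6 Sult1, 8 Ces1 and 7 Ces2 genes. The prefix Cyp2 also took in 8 genes of other cytochrome P450 families, Cyp20a1, Cyp21a1, Cyp24a1, Cyp26a1, Cyp26b1, Cyp26c1, Cyp27a1 and Cyp27b1, which are counted separately. Apart from Cyp20a1, they act mainly on the body's own sterols, retinoic acid and vitamin D. The rule by symbol uses no measured value, but it was chosen with earlier results of these data known.

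The study compared goblet cells, the mucus-secreting cells of the gut lining, in 2 gut regions, the distal colon (DC) and section 8 of the small intestine (Si8). Every library came from mice of the strain RedMUC298trTg, aged 6 to 8 weeks, which carry an mCherry reporter. Live cells were sorted on whether they showed mCherry signal, with a C57Bl6 mouse as the negative control, and were profiled with the 3' v2 kit of 10x Genomics. There were 4 libraries, 2 from DC and 2 from Si8, and the labels give neither the number of mice behind a library nor whether the mCherry-negative cells were loaded, so the p-values below measure only the spread between these libraries, which may be technical.

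Detoxification enzymes work in steps. Cytochromes P450 oxidise a lipid-soluble compound and carboxylesterases (Ces) cleave its ester bonds, which exposes a chemical group. Glutathione S-transferases (Gst), UDP-glucuronosyltransferases (Ugt) and sulfotransferases (Sult) then attach glutathione, glucuronic acid or sulfate, and transporters carry the soluble product out of the cell. In the intestine these enzymes are best known from absorptive enterocytes, where they meet drugs and dietary compounds before the liver does.

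The 4 libraries held 10827 barcodes, of which 10243 were kept after filters and removal of likely doublets. The libraries carried between 26075303 and 66880457 molecules (UMIs), and only 45 barcodes occurred in more than 1 library. Cells were clustered within each region, and clusters were named from marker genes. Goblet-like cells numbered 835 and 1750 in the DC libraries and 970 and 1134 in the Si8 libraries, so clusters named goblet-like held 37.0% to 65.1% of the kept cells. Clusters left unnamed held 23.2% and 21.7% of the DC cells and 13.5% and 2.18% of the Si8 cells. Of these, DC clusters 4 and 10 and Si8 cluster 8 matched goblet markers best, and DC cluster 7 stem markers. The named share may therefore be below the true share of goblet cells. Absorptive-like cells (205, 946, 111 and 312) and cycling-like cells (363, 994, 187 and 644) were also present in all 4 libraries. No cluster could be named stem-like. The marker gene of goblet cells, Muc2, stood at 2504 and 2371 counts per 1000000 UMIs (CPM) in the DC absorptive-like cells and at 6511 and 4452 CPM in those of Si8, against 5064 to 11249 CPM in goblet-like cells. A list of 20 genes induced by cell dissociation summed to 20114 and 15239 CPM in DC goblet-like cells and to 9250 and 7961 CPM in those of Si8, with all 20 detected in each, and the median share of mitochondrial UMIs in these cells was 5.56% and 5.38% against 2.84% and 2.88%. The part of these differences in the results below was not tested.

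Levels below are CPM of all UMIs of a cell class in 1 library. Fold changes are log2 values of DC over Si8, with their standard error, from edgeR's quasi-likelihood test on UMIs summed per class and library (n = 2 libraries per region), and adjusted p-values are Benjamini-Hochberg values over all genes tested in that class. A gene counts as higher or lower in DC where its adjusted p is under 0.05. Comparisons of one class or cluster with another are descriptions only, since classes and clusters come from clustering of the same cells.

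Several members lie side by side in the genome. The 7 Gstm genes occupy 149.1 kb of chromosome 3 (chr3:107895821-108044894, GRCm38, GENCODE M21), the 8 Cyp2d genes 423.8 kb of chromosome 15, the 8 Ces1 genes 359.5 kb and the 7 Ces2 genes 287.2 kb of chromosome 8. Reads from such near-identical copies can be misassigned. Of the 120 members, 33 shared at least 20% of the 50-base words in their last 500 transcript bases with another gene, among them Gsta1 (90.0%), Gstp1 (75.2%), Gstp2 (88.9%) and Cyp2c68 (51.2%), and their values are uncertain to that extent. For 62 members no such word was shared, and for Gstm1 the share was 0.887%.

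Sequence upstream of the start site is shown for 5 members that were called in each class tested. These are 3 genes of the Gstm locus and Sult1a1, which were higher in DC, and Ces2e, which was lower. For Gstm1, Sult1a1 and Ces2e the goblet-like values have limits that are given below. The sequences come from RefSeq (GRCm38.p6), cover up to 250 bases before the transcript start and leave out any base inside an annotated exon. They lie at chr3:108017974-108018223 on the minus strand (Gstm1), chr3:107986454-107986670 on the minus strand (Gstm2), chr3:107931818-107932067 on the minus strand (Gstm7), chr7:126676433-126676668 on the minus strand (Sult1a1) and chr8:104926010-104926259 on the plus strand (Ces2e). Capitals mark matches on either strand to the core element bound by the aryl hydrocarbon receptor (GCGTG), to the antioxidant response element (TGACNNNGC) or to the element bound by CDX factors (TTTATN).
Gstm1: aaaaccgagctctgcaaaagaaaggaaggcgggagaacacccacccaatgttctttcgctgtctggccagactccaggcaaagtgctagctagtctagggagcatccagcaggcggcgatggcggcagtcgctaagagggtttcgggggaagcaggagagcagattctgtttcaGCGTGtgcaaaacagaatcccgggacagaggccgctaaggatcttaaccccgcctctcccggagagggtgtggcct
Gstm2: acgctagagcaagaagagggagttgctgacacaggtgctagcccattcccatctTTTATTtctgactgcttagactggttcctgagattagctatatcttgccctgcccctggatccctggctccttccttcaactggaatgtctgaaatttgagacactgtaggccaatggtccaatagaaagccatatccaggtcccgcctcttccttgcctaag
Gstm7: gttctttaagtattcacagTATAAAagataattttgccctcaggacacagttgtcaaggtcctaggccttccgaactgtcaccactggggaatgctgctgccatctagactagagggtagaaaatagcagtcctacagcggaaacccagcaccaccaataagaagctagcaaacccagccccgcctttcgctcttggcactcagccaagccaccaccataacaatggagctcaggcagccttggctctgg
Sult1a1: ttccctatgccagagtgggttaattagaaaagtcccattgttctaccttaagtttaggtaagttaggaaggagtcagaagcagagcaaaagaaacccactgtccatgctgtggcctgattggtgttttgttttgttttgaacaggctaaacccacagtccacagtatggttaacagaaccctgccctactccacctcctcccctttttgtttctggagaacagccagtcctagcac
Ces2e: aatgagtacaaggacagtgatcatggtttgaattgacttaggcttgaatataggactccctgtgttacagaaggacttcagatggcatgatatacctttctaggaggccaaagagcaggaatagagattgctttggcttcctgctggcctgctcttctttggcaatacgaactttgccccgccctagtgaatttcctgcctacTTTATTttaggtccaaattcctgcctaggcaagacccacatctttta
Gstm1 held 1 aryl hydrocarbon receptor core, Gstm2, Gstm7 and Ces2e held 1 CDX element each, and Sult1a1 held none of the 3; no matches overlapped. Over all 32851 RefSeq windows of 250 bases, 28.2% held the aryl hydrocarbon receptor core, 10.2% the antioxidant element and 37.2% the CDX element. Of the 104 members with a window, 16, 3 and 66 held them, and the 3 with an antioxidant element were Gsta3, Gstm5 and Gstm7. These counts run over all 115 windows of the 104 members, since a gene can have several start sites, and they keep exon bases. The antioxidant match of Gstm7 and a CDX match of Gstm1 thus lie in windows of other start sites than those printed. A longer motif of the factor HNF4A, CAAAGTCCA, was in 0.384% of all windows and in those of 10 members, 6 Cyp2c and 4 Cyp3a genes. Such duplicated genes have similar promoters and are not independent.

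Summed by family, the Gstm, Sult1 and Cyp2 genes were higher in DC in goblet-like and absorptive-like cells. The Ces1, Ces2, Gsta and Cyp3a genes were lower there. The Cyp2 sum was 173 and 158 CPM in DC against 110 and 117 CPM in Si8 goblet-like cells. In absorptive-like cells it was 354 and 320 CPM against 149 and 150 CPM. The Cyp3a sum was 2.69 and 3.20 CPM against 5.87 and 5.03 CPM in goblet-like cells, and 25.5 and 20.9 CPM against 62.5 and 55.9 CPM in absorptive-like cells. In goblet-like cells the 7 Gstm genes together stood at 294 and 329 CPM in the DC libraries and at 89.8 and 105 CPM in the Si8 libraries. In absorptive-like cells the same sum was 476 and 508 CPM against 65.2 and 71.0 CPM. The gap was thus present in both classes, with no overlap between regions. The Ces2 sum ran the other way, at 81.1 and 102 CPM in DC absorptive-like cells and 241 and 294 CPM in those of Si8, while in goblet-like cells it was under 15 CPM in every library. The Ces1 sum was 6.68 and 5.85 CPM in DC goblet-like cells against 41.0 and 51.7 CPM in Si8, and the Gsta sum 13.2 and 13.4 CPM against 46.7 and 103 CPM. In cycling-like cells the Ces1 sum was instead 30.9 and 48.6 CPM in DC against 26.4 and 24.5 CPM, and the Gsta sums overlapped between regions, at 66.0 and 94.8 CPM against 57.3 and 73.0 CPM. The Gstt sum showed no such gap in goblet-like cells, and the 9 Ugt1a genes together stayed under 4 CPM in each class and library.

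**Figure D1:**
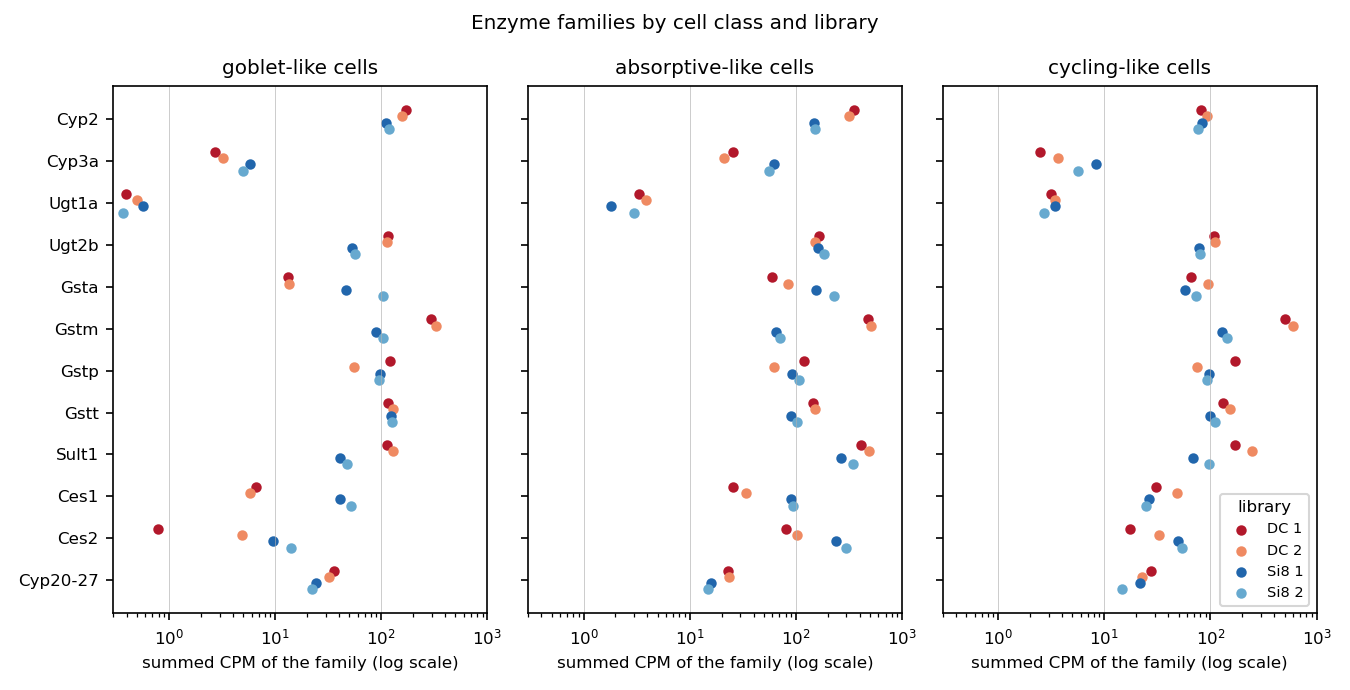
Summed level of each enzyme family (CPM, log axis) in goblet-like, absorptive-like and cycling-like cells, with 1 point per library and colour for region. The Gstm points of DC lie above those of Si8 in all 3 classes, and the Ces2 points of Si8 absorptive-like cells lie above those of DC.

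Of the oxidising enzymes, the Cyp2d genes that could be tested were mostly higher in DC. Of the 8, 6 were tested in goblet-like, 6 in absorptive-like and 5 in cycling-like cells. In that order 6, 5 and 5 were higher in DC, with none lower. Over all genes tested in these classes, 22.0%, 17.4% and 14.3% were higher in DC. Cyp2d34 stood at 52.6 and 44.4 CPM in DC goblet-like cells and at 0.442 and 0.233 CPM in those of Si8, a log2 fold change of 6.75 ± 0.23 (edgeR adjusted p = 1.7e-06). In absorptive-like cells the DC libraries held 76.7 and 60.0 CPM and the Si8 libraries 0.899 and 0 CPM, a ratio over pooled UMIs of 315 (95% counting interval 87.1 to 2607). The small intestinal level was thus close to nothing in both classes. Cyp2d12 was at 26.1 and 6.98 CPM in the DC absorptive-like cells and at 0 and 0.129 CPM in Si8, so the DC libraries differed from each other as well (log2 6.72 ± 1.13, edgeR adjusted p = 0.00099). Its level was highest in 1 of the 3 DC absorptive-like clusters, number 12, at 330 and 41.6 CPM against 2.88 to 4.44 CPM in the other 2, and without it the log2 value was 4.66. Cyp2d22 and Cyp2d9 were also higher in DC in goblet-like cells, by 5.42 ± 0.75 and 5.07 ± 1.04 on the log2 scale (edgeR adjusted p = 0.00082 and 0.0056), from levels of 0.883 to 2.39 CPM in DC. Many Cyp2d transcripts share part of their 3' sequence, so the split between them is less certain than the group.

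Cyp2f2, known for oxidising naphthalene in the airway, had no UMI in goblet-like cells of either Si8 library. Its DC levels there were 6.18 and 5.30 CPM, which is at least 69.8-fold higher than a floor of 3 UMIs over the Si8 group. In absorptive-like cells it was at 24.5 and 29.4 CPM in DC against 0 and 0.387 CPM in Si8 (log2 6.23 ± 0.43, edgeR adjusted p = 2e-06). Cyp2c65 showed the opposite pattern, with no UMI in DC goblet-like cells against 6.56 and 5.45 CPM in Si8. That is a DC level at least 55.6-fold lower. In absorptive-like cells it was at 0 and 0.784 CPM against 8.54 and 9.79 CPM (log2 -4.09 ± 0.50, edgeR adjusted p = 0.00012).

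The Cyp2c genes, which oxidise arachidonic acid and many drugs, therefore did not follow one direction. Cyp2c55 was at 23.4 and 24.4 CPM in DC absorptive-like cells against 0 and 0.644 CPM in Si8 (log2 5.34 ± 0.41, edgeR adjusted p = 4.2e-06), and Cyp2c69 was higher in DC there by 5.54 ± 0.75 (edgeR adjusted p = 0.00023). Cyp2c68 was higher in DC in absorptive-like cells, at 97.8 and 92.5 CPM against 24.3 and 22.3 CPM (log2 1.82 ± 0.16, edgeR adjusted p = 1.1e-05). In goblet-like cells it was lower in DC, at 51.7 and 45.7 CPM against 54.6 and 60.3 CPM (log2 -0.69 ± 0.12, edgeR adjusted p = 0.0021). That difference is small in CPM, and with scaling by library totals alone it was -0.24 and did not pass the test (adjusted p = 0.10).

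Cyp2u1, a P450 that hydroxylates long-chain fatty acids, was lower in DC in each class, at 1.49 and 0.827 CPM against 6.06 and 6.19 CPM in goblet-like cells (log2 -2.93 ± 0.30, edgeR adjusted p = 0.00021). Cyp2j6 was lower in DC absorptive-like cells, at 27.1 and 27.4 CPM against 68.4 and 54.8 CPM (log2 -1.38 ± 0.18, edgeR adjusted p = 0.00016). In goblet-like cells its 4 values lay between 26.8 and 29.6 CPM with the regions overlapping, and the call there (log2 -0.41) came from the scaling, since with library totals alone the sign turned to 0.04. It was also lost without the first DC library (adjusted p = 0.11) and without the second Si8 library (adjusted p = 0.063). Cyp3a13, the only Cyp3a gene tested in any class, belongs to the subfamily that oxidises the widest range of drugs. It was lower in DC, at 25.5 and 20.8 CPM against 60.7 and 54.3 CPM in absorptive-like cells (log2 -1.56 ± 0.17, edgeR adjusted p = 6.6e-05) and at 2.69 and 3.20 CPM against 5.80 and 4.94 CPM in goblet-like cells (log2 -1.29 ± 0.23, edgeR adjusted p = 0.0029). Cyp27a1, the mitochondrial sterol 27-hydroxylase, was higher in DC goblet-like cells (log2 1.13 ± 0.26, edgeR adjusted p = 0.0088), a call lost without the first DC library (log2 0.82, adjusted p = 0.053), and Cyp20a1 did not pass the test in any class.

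Among the glutathione transferases, all 7 Gstm genes were higher in DC in goblet-like and in cycling-like cells, and 6 of the 7 in absorptive-like cells, where Gstm4 did not pass (log2 1.05 ± 0.39, edgeR adjusted p = 0.059). Over all genes tested, 22.0%, 14.3% and 17.4% were higher in DC in goblet-like, cycling-like and absorptive-like cells. In goblet-like cells Gstm5 stood at 129 and 137 CPM in DC, against 31.2 and 36.8 CPM in Si8 (log2 1.52 ± 0.13, edgeR adjusted p = 7.2e-05). Gstm2 was at 52.4 and 51.1 CPM against 12.1 and 11.5 CPM (log2 1.68 ± 0.10, edgeR adjusted p = 1.8e-05). Replicate libraries of a region were close together for both genes. Gstm6 changed most of the 7 in each class, by 3.53 ± 0.33 in goblet-like and 3.89 ± 0.30 in absorptive-like cells (edgeR adjusted p = 0.00012 and 4.1e-06).

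Gstm1 differed much less between regions in goblet-like cells than in the other classes. Its goblet-like levels were 75.0 and 99.2 CPM in DC against 40.3 and 47.9 CPM in Si8 (log2 0.53 ± 0.16, edgeR adjusted p = 0.031). This call did not hold without the second DC library (log2 0.31, adjusted p = 0.17) or without the first Si8 library (log2 0.40, adjusted p = 0.071). In absorptive-like cells Gstm1 was at 209 and 243 CPM against 13.5 and 21.5 CPM (log2 3.39 ± 0.21, edgeR adjusted p = 1e-06), and in cycling-like cells at 235 and 330 CPM against 46.1 and 49.9 CPM (log2 2.44 ± 0.20, edgeR adjusted p = 0.00011). Within Si8, absorptive-like cells thus held less Gstm1 than goblet-like cells, while within DC they held more.

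**Figure D2:**
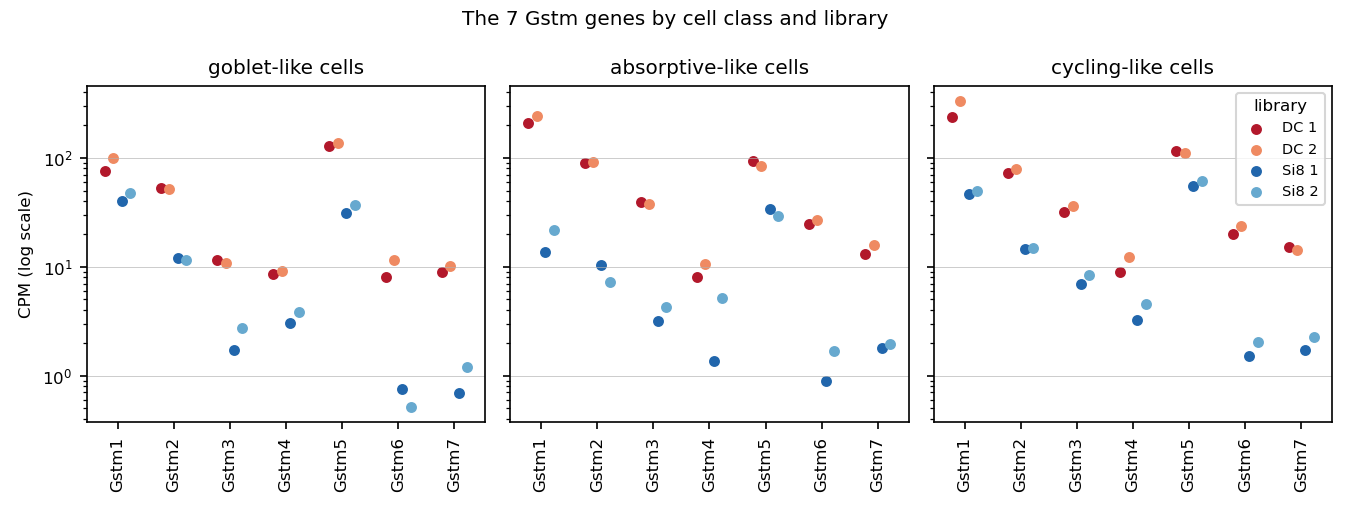
Level of the 7 Gstm genes (CPM, log axis) in goblet-like, absorptive-like and cycling-like cells, with 1 point per library and colour for region. The DC points lie above the Si8 points for each gene and class; for Gstm1 the gap is narrowest in goblet-like cells, 75.0 and 99.2 CPM against 40.3 and 47.9 CPM.

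The Gsta genes, whose products detoxify peroxidised lipids, were lower in DC goblet-like cells where they passed the test. Gsta4, which acts on 4-hydroxynonenal, was at 6.28 and 6.73 CPM in DC against 33.5 and 73.6 CPM in Si8 (log2 -3.49 ± 0.38, edgeR adjusted p = 0.00025). The Si8 libraries themselves differed for this gene, and without the second of them the log2 fold change was -2.78. Within Si8 it was concentrated in 1 goblet-like cluster, number 4, at 126 and 222 CPM. Gsta1 was at 0.797 and 1.93 CPM against 11.1 and 26.2 CPM in goblet-like cells (log2 -4.10 ± 0.51, edgeR adjusted p = 0.00051) and at 21.1 and 35.3 CPM against 106 and 155 CPM in absorptive-like cells (log2 -2.37 ± 0.25, edgeR adjusted p = 3.8e-05). Gsta3 had its clearest difference in cycling-like cells, in the opposite direction, at 42.3 and 55.5 CPM in DC against 9.87 and 14.5 CPM in Si8 (log2 1.83 ± 0.22, edgeR adjusted p = 0.00073).

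Gstp1 and Gstp2 passed the test in no class. Gstp1 was at 96.9 CPM in the first DC library and 42.5 CPM in the second in goblet-like cells, with both Si8 libraries between them (82.7 and 77.4 CPM), and the first DC library was also the higher one in the other classes. Without that library Gstp1 was lower in DC in goblet-like cells (log2 -1.35, edgeR adjusted p = 0.00071) and in absorptive-like cells (log2 -0.998, edgeR adjusted p = 0.00036). Of the Gstt genes, Gstt1 was higher in DC absorptive-like cells, at 26.8 and 32.8 CPM against 8.99 and 9.67 CPM (log2 1.47 ± 0.21, edgeR adjusted p = 0.00034), but did not pass in goblet-like cells (log2 0.12 ± 0.20, adjusted p = 0.66), where it took values of -0.15 and 0.48 without the first and the second Si8 library. Gstt2 was lower in DC goblet-like cells by 0.72 ± 0.14 on the log2 scale (edgeR adjusted p = 0.0037), with levels of 52.5 and 66.4 CPM against 73.9 and 70.2 CPM, and Gstt3 did not pass in any class. With library totals alone the Gstt2 difference was -0.27 and did not pass (adjusted p = 0.11).

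Among the glucuronosyltransferases, the Ugt2b genes, which conjugate steroids, bile acids and drugs, differed by gene and by class. None of them was called in opposite directions. Ugt2b34 stood at 109 and 105 CPM in DC goblet-like cells and at 53.1 and 55.4 CPM in those of Si8 (log2 0.53 ± 0.10, edgeR adjusted p = 0.0043). In absorptive-like cells its values, 155 and 143 CPM against 131 and 145 CPM, overlapped between regions. Ugt2b35 was at 6.18 and 7.06 CPM in DC goblet-like cells against 0.126 and 0.419 CPM in Si8 (log2 4.03 ± 0.42, edgeR adjusted p = 0.00021), but at 9.04 and 7.53 CPM against 10.3 and 10.2 CPM in absorptive-like cells, where it did not pass (log2 -0.56 ± 0.25, edgeR adjusted p = 0.11). In Si8, then, its level was higher in absorptive-like and cycling-like than in goblet-like cells, and in DC it was found in all 3 classes.

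Ugt2b5 and Ugt2b36 were found almost solely in Si8. Ugt2b5 had no UMI in DC absorptive-like cells against 14.8 and 21.8 CPM in Si8, so the DC level was at least 106-fold lower. Ugt2b36 was at 0.335 and 0.0784 CPM against 5.85 and 9.15 CPM, a ratio of Si8 to DC over pooled UMIs of 66.2 (95% counting interval 17.8 to 556). Intervals and floors here and elsewhere cover counting error only. The Ugt1a genes other than Ugt1a7c shared all of their 3' words with other Ugt1a genes, so 3' reads cannot tell them apart. Of the 9, Ugt1a7c was tested in absorptive-like and cycling-like cells and Ugt1a6a in cycling-like cells, and neither passed.

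Among the sulfotransferases, Sult1a1, which sulfates phenols, was found mostly in DC, with 0 to 1.93 CPM in the Si8 libraries over the 3 classes. It was at 12.7 and 24.5 CPM in DC goblet-like cells against 0 and 0.233 CPM in Si8 (log2 6.63 ± 0.63, edgeR adjusted p = 0.00013), and at 185 and 222 CPM against 0 and 1.93 CPM in absorptive-like cells (log2 6.90 ± 0.37, edgeR adjusted p = 3.3e-07). In cycling-like cells the values were 90.5 and 146 CPM against 0.644 and 1.75 CPM. Fitted folds of genes so close to 0 in 1 region depend on a few UMIs: without the first or the second Si8 library the Sult1a1 value in goblet-like cells was 5.85 or 10.99, with the call kept. Sult1c2 was higher in DC in absorptive-like cells, at 28.5 and 36.3 CPM against 9.44 and 8.25 CPM (log2 1.72 ± 0.22, edgeR adjusted p = 0.00018), and did not pass in goblet-like cells. With 1 of the 3 DC absorptive-like clusters, number 12, as the only DC cells it was -0.88 ± 0.64 and did not pass (adjusted p = 0.34). Its levels in that cluster were 0 and 5.55 CPM, from few UMIs. Sult1b1, a sulfotransferase of phenols and thyroid hormone, was higher in DC goblet-like cells, at 13.0 and 17.8 CPM against 6.06 and 7.64 CPM (log2 0.72 ± 0.21, edgeR adjusted p = 0.025), but not without the second DC library (log2 0.45, adjusted p = 0.19).

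Sult1d1, which sulfates catecholamines in mice, was called in opposite directions. In goblet-like cells it was at 76.2 and 74.7 CPM in DC against 28.8 and 31.9 CPM in Si8 (log2 0.86 ± 0.11, edgeR adjusted p = 0.00053). In absorptive-like cells it was at 106 and 103 CPM against 150 and 202 CPM (log2 -0.99 ± 0.17, edgeR adjusted p = 0.0011). In cycling-like cells it was also lower in DC, by 0.73 ± 0.18 on the log2 scale (edgeR adjusted p = 0.018).

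The carboxylesterases, which hydrolyse ester drugs and lipid esters, were mostly lower in DC in goblet-like and absorptive-like cells. In cycling-like cells, of 9 tested, Ces2e was lower, Ces1b, Ces1d and Ces2g were higher and 5 did not pass. Over all genes tested in that class, 14.3% were higher and 11.9% lower. Ces2e was at 29.8 and 41.2 CPM in DC absorptive-like cells against 194 and 236 CPM in Si8 (log2 -2.79 ± 0.20, edgeR adjusted p = 2.2e-06). Ces1f was at 9.38 and 12.5 CPM against 74.2 and 78.1 CPM in absorptive-like cells (log2 -2.95 ± 0.18, edgeR adjusted p = 9.3e-07) and at 0 and 1.21 CPM against 24.9 and 26.3 CPM in goblet-like cells (log2 -5.50 ± 0.47, edgeR adjusted p = 7.9e-05). Neither gene's regions overlapped in these classes. In cycling-like cells, by contrast, Ces1f was at 12.5 and 23.1 CPM against 18.9 and 14.0 CPM and did not pass. Ces1c was lower in DC in goblet-like cells (log2 -2.48 ± 0.38, edgeR adjusted p = 0.0014) and absorptive-like cells (log2 -2.92 ± 0.43, edgeR adjusted p = 0.00043), and Ces1e in goblet-like cells only (log2 -3.48 ± 0.63, edgeR adjusted p = 0.0031).

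The carboxylesterases higher in DC in some class were Ces1d, Ces2g and Ces1b. Ces1d was at 9.04 and 13.1 CPM in DC absorptive-like cells against 0 and 0.258 CPM in Si8 (log2 5.54 ± 0.58, edgeR adjusted p = 4.1e-05), and Ces2g at 11.7 and 19.5 CPM against 0.450 and 2.71 CPM (log2 2.75 ± 0.43, edgeR adjusted p = 0.00062). Both stayed below 1 CPM in goblet-like cells and were not tested there. Ces1b, which shares 25.1% of its 3' words with Ces1c, was tested in cycling-like cells only among the 3 classes, at 1.71 and 1.66 CPM against 0.215 and 0.339 CPM (log2 2.29 ± 0.53, edgeR adjusted p = 0.015), and was also higher in all kept cells together (log2 1.57 ± 0.40, edgeR adjusted p = 0.039). The 2 loci on chromosome 8 thus each hold genes that were higher and genes that were lower in DC.

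Over the whole set, 44 members had enough UMIs to be tested in goblet-like cells, and 20 were higher and 15 lower in DC. Of all 11739 genes tested in that class 45.3% were called, 22.0% higher and 23.3% lower. In absorptive-like cells 20 of 48 were higher and 13 lower, against 34.3% of 10675 genes called in either direction (17.4% higher, 16.9% lower). In cycling-like cells 22 of 51 were higher and 9 lower, against 26.2% of 11896 genes (14.3% higher, 11.9% lower), and in all kept cells together 22 of 55 were higher and 12 lower, against 24.9% of 13084 genes (12.9% higher, 12.0% lower). A member enters the test through the region in which it has UMIs, so these counts are descriptive. The median log2 fold change of tested members was 0.30, 0.33 and 0.54 in goblet-like, absorptive-like and cycling-like cells, against 0.04, 0.03 and 0.02 over all tested genes.

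Scaling by library totals alone moved the median of all genes to 0.48, 0.24 and 0.14 in the same order. It raised the share of calls that were higher in DC from 48.6% to 81.1% over all genes in goblet-like cells, and from 57.1% to 65.7% among members. In absorptive-like cells these shares moved from 50.6% to 68.2% and from 60.6% to 65.7%, in cycling-like cells from 54.5% to 65.6% and from 71.0% to 74.2%, and in all kept cells from 51.9% to 80.6% and from 64.7% to 72.2%.

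Of the 40 members tested in all 3 classes, 12 were higher in DC in each: Cyp2d10, Cyp2d12, Cyp2d22, Cyp2d34, Cyp2f2, Gstm1, Gstm2, Gstm3, Gstm5, Gstm6, Gstm7 and Sult1a1. Of all 10497 genes tested in the 3 classes, 8.94% were called higher in each and 7.67% lower in each. Another 5 members, Ces2e, Cyp2c65, Cyp2u1, Cyp3a13 and Gsta4, were lower in each, although the goblet-like level of Ces2e was at that of free RNA, as described further on. The classes come from the same 4 libraries, so this recurrence is not independent evidence. Only Cyp2c68 and Sult1d1 were called in opposite directions in goblet-like and absorptive-like cells.

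**Figure D3:**
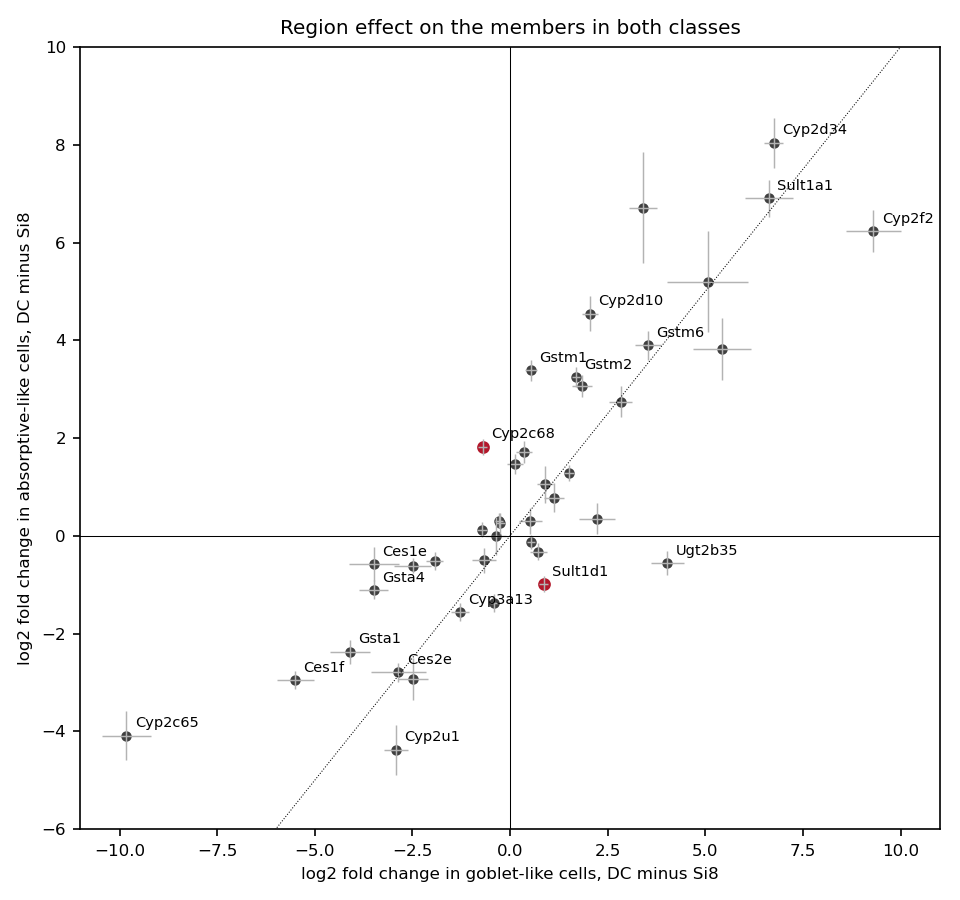
Log2 fold change of DC over Si8 for members tested in both classes, goblet-like cells on the horizontal axis and absorptive-like cells on the vertical axis, with bars of 1 standard error and a dotted line of equal effects. The 2 members called in opposite directions are in red: Sult1d1 (0.86 and -0.99) lies in the lower right quadrant and Cyp2c68 (-0.69 and 1.82) in the upper left. The goblet-like values of Cyp2f2 and Cyp2c65 come from a region with no UMI and are not bounds.

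The difference between the regional effects was tested itself, as an interaction of class and region with the library as a block. Of 53 members tested, 24 differed, 18 with an effect shifted towards DC in absorptive-like and 6 with one shifted towards DC in goblet-like cells, against 19.7% of 11996 genes called in either direction (11.7% and 7.94%). With library totals alone the share of calls shifted towards DC in absorptive-like cells went from 59.6% to 28.8% over all genes and from 75.0% to 72.7% among members. Gstm1 had a regional effect 2.87 larger on the log2 scale in absorptive-like cells, Cyp2c68 one 2.57 larger and Gstm2 one 1.57 larger. For Sult1d1 (-1.85) and Ugt2b35 (-4.58) the shift towards DC was in goblet-like cells.

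Within DC, the absorptive-like cells were not uniform for these enzymes. They fell into clusters 6, 9 and 12, and cluster 12, marked by Car4, Aqp8, Car1, Slc26a3 and Krt20, made up 17.1% and 13.5% of them in the 2 libraries (35 and 128 cells). Clusters 6 and 9, which held the rest, were both marked by Gsdmc2, Gsdmc3, Gsdmc4, Dmbt1 and Muc3. All Si8 absorptive-like cells were in 1 cluster, marked by Fabp6, Apoa1 and Sis. The regional comparison in this class thus set mainly cells of DC clusters 6 and 9 against Si8 cells with other leading markers. Ces2e was at 174 and 214 CPM in cluster 12, near the 194 and 236 CPM of Si8 absorptive-like cells. Sult1b1 was there at 461 and 450 CPM, Sult1d1 at 372 and 291 CPM, and Cyp2c55 at 231 and 193 CPM. These levels exceeded those of the pooled DC absorptive-like cells several-fold. Gstm1 and Sult1a1 had the reverse pattern, at 23.5 and 34.2 CPM and at 9.42 and 30.5 CPM in cluster 12, against 270 and 345 CPM and 293 and 343 CPM in cluster 9. Cells of cluster 12 had median depths of 5870 and 8342 UMIs and median mitochondrial shares of 13.9% and 11.8%, against 5.26% and 5.16% over all kept cells of those libraries. With 35 such cells in the first DC library, low levels there rest on few UMIs. The part of depth and RNA quality in these levels was not tested.

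**Figure D4:**
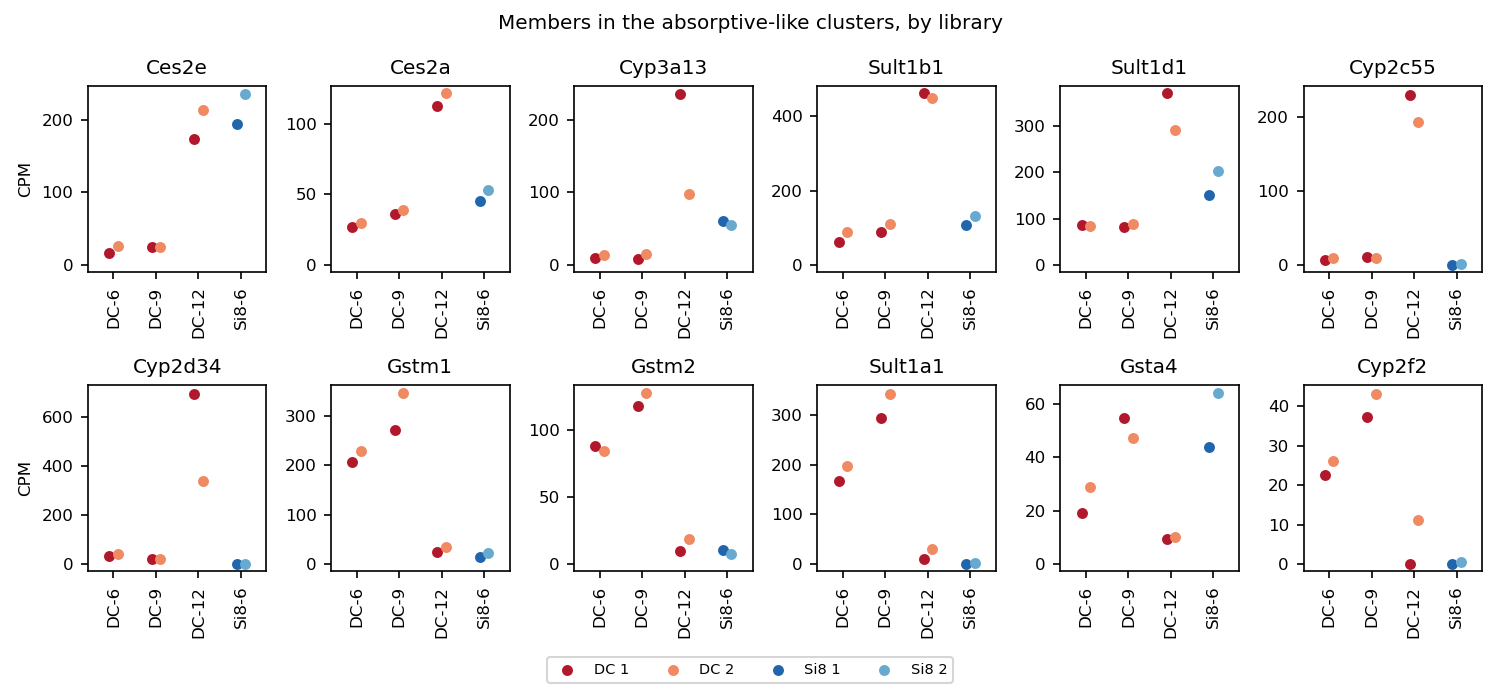
Level of members (CPM, linear axis, a separate scale per gene) in the 3 DC absorptive-like clusters and in the Si8 absorptive-like cluster, with 1 point per library. Ces2e in DC cluster 12 (174 and 214 CPM) lies near Si8 (194 and 236 CPM), while Gstm1 in DC cluster 12 (23.5 and 34.2 CPM) lies below the other DC clusters.

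The regional comparison in absorptive-like cells was therefore repeated with cluster 12 as the only DC absorptive-like cells, an alternative chosen after these levels had been seen. Of 36 members tested both ways, 12 had been higher in DC, of which 8 were still higher and 4 did not pass. Another 12 had been lower, of which 8 were still lower, 3 were higher and 1 did not pass; over all genes 28.1% were called. The 3 that turned over were Ces2a (log2 1.29, edgeR adjusted p = 0.0036), Cyp3a13 (1.41, 0.017) and Sult1d1 (0.91, 0.035), and the Ces2e difference was no longer there (log2 -0.10, adjusted p = 0.82). The Gstm1, Gstm2 and Gstm5 differences shrank to 0.82, 1.04 and 0.74 and did not pass (adjusted p = 0.10, 0.11 and 0.081). Cluster 12 holds few UMIs, and their standard errors were 0.34, 0.45 and 0.29, against 0.21, 0.21 and 0.16 with all 3 clusters. With cluster 12 left out, Ces2e was lower in DC by 3.49, Cyp3a13 by 2.46 and Sult1d1 by 1.30 on the log2 scale, and Sult1b1 became lower by 0.78 (edgeR adjusted p = 0.0054). The values of Cyp2c55, Cyp2d22 and Cyp2d34 were then 3.80, 3.13 and 6.94 in place of 5.34, 3.82 and 8.04, with the calls kept. The direction in absorptive-like cells for Ces2a, Cyp3a13 and Sult1d1 therefore rested on clusters 6 and 9. With cluster 12 only, the interaction of Sult1d1 was -0.03 (adjusted p = 0.97) and that of Gstm1 0.18 (adjusted p = 0.76), while that of Cyp2c68 was 1.98.

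Other clusters also had enzymes of their own by level. DC cluster 10 was left unnamed because its leading genes came from more than 1 class. It held Cyp2d34 at 987 and 663 CPM and Cyp2d12 at 545 and 224 CPM, and both were among its top genes. Its cells were shallow, with medians of 3936 and 3870 UMIs, and their median mitochondrial shares were 10.5% in both libraries. DC cluster 7, also unnamed, held Gstm1 at 428 and 514 CPM, the highest of any DC cluster. Of the 47 members that reached 5 CPM in some class, the DC cluster with the highest level was cluster 9 for 14, cluster 12 for 14 and cluster 7 for 9. In Si8 it was the absorptive-like cluster 6 for 15 and the cycling-like cluster 5 for 7.

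**Figure D5:**
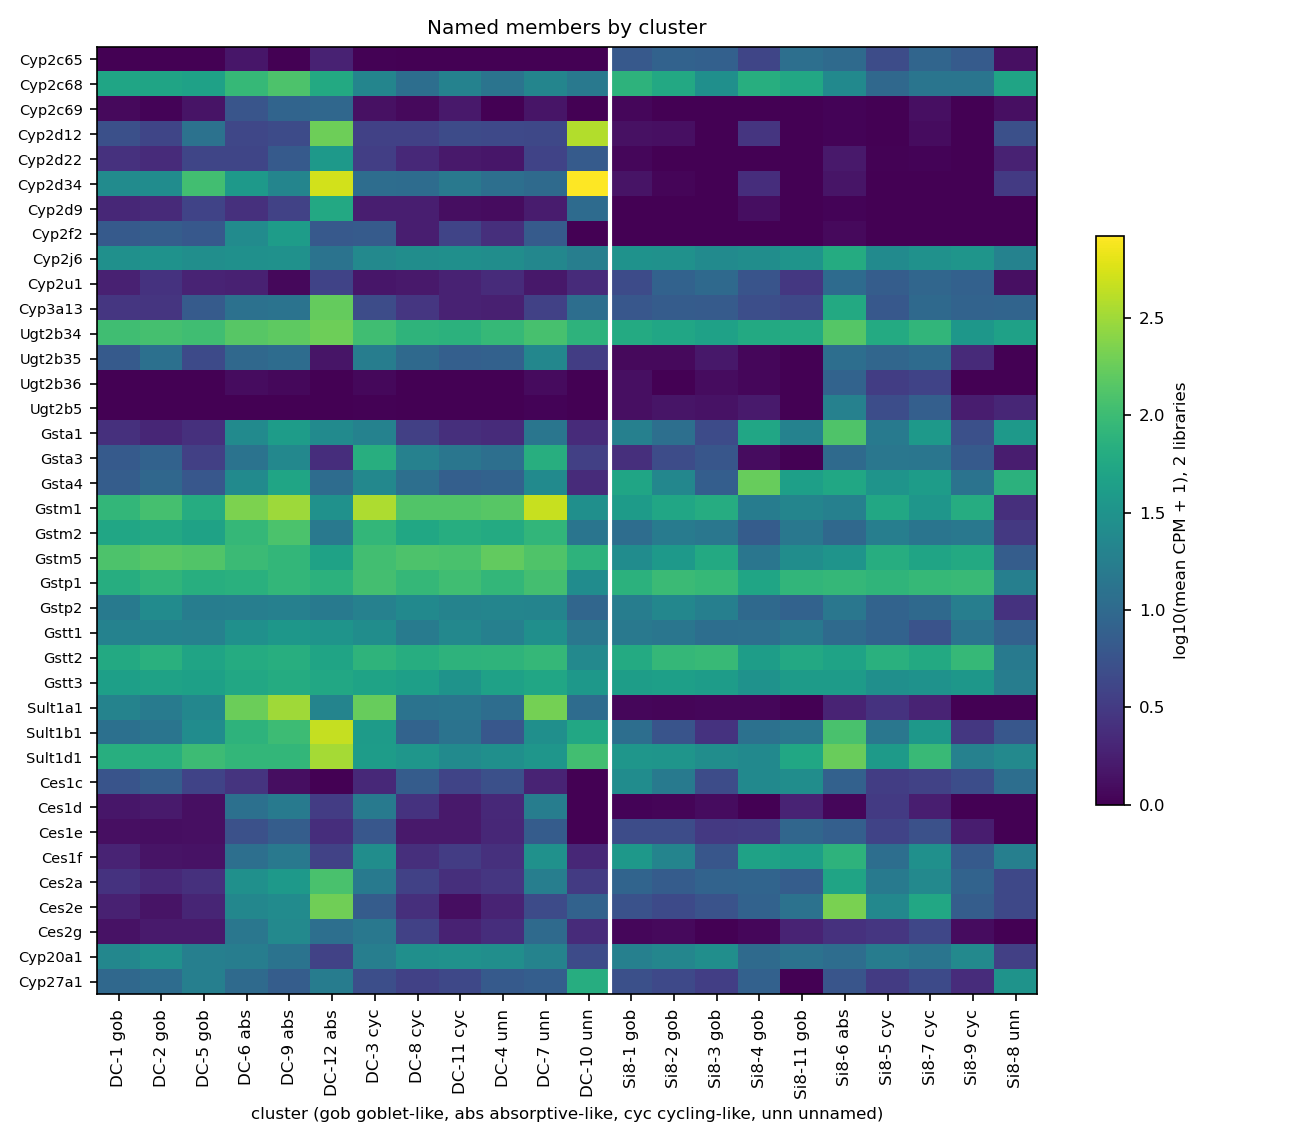
Levels of the named members by cluster, as colour for the log10 of the mean CPM of 2 libraries plus 1, with DC clusters left of the white line and Si8 clusters right of it. Ces2e is high in Si8 cluster 6 and DC cluster 12, Gstm1 in DC clusters 3, 7 and 9, and Cyp2d34 in DC clusters 10 and 12.

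RNA released from absorptive cells can enter other droplets, so goblet-like levels were set against absorptive-like levels in the same library. For genes of at least 20 CPM in absorptive-like cells, the absorptive markers had a median goblet-like level of 2.29% and 5.64% of the absorptive-like level in the DC libraries and 2.13% and 3.56% in those of Si8. The members at that level, 27, 25, 16 and 18 in the same order, had medians of 36.0%, 40.9%, 36.6% and 35.9%. Single markers reached 267%, 283%, 114% and 205%. The comparison covers RNA from absorptive-like cells only. Free RNA from other cells, such as those of the unnamed clusters, was not tested. Ces2e was at the markers' level (0%, 3.61%, 1.82% and 2.55%), and its goblet-like values are not read as expression. Gsta1 in DC (3.78% and 5.47%) and Ces2a in DC (1.42% and 6.22%) were also near it, and Cyp2c55 in DC was at 0% and 2.49%. Sult1a1 in DC was at 6.84% and 11.05%, above the marker medians but well below the member medians. The marker Saa1 was at 7.42% and 13.97% there. Other members were in this range too. Sult1b1 was at 13.5% and 14.2% in DC and at 5.64% in the first Si8 library. Cyp3a13 was at 10.6% and 15.4% in DC and at 9.56% in the first Si8 library. Cyp2s1 was at 12.1% and 10.3% in DC, and Gsta1 at 10.5% in the first Si8 library. The part of free RNA in the goblet-like levels of Sult1a1, Sult1b1, Cyp3a13, Cyp2s1 and Gsta1 was not tested.

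The other genes of drug metabolism on a list of 103, such as receptors, further oxidoreductases and transporters, were called in both directions. In goblet-like cells 20 of 79 tested were higher and 29 lower, against 22.0% and 23.3% of all genes tested. In absorptive-like cells 16 of 83 were higher and 33 lower, against 17.4% and 16.9%, and in cycling-like cells 18 of 79 were higher and 23 lower, against 14.3% and 11.9%. The medians were -0.22, -0.24 and -0.07, against 0.04, 0.03 and 0.02 over all genes. Of the 14 genes that supply cosubstrates, 8 were lower and 1 higher in goblet-like cells, 6 lower and 2 higher in absorptive-like cells. In cycling-like cells 13 of them were tested, and 3 were lower, 3 higher and 7 did not pass. Adh1, an alcohol and retinol dehydrogenase, was at 302 and 269 CPM in DC goblet-like cells against 1.20 and 1.30 CPM in Si8 (log2 7.37, edgeR adjusted p = 3e-07), and Maob, a monoamine oxidase, was higher by 4.58. Fmo1, a flavin monooxygenase, had 26 UMIs in DC and 0 in Si8. Abcg2, an efflux transporter, was at 3.09 and 3.14 CPM against 61.1 and 62.2 CPM (log2 -4.75, edgeR adjusted p = 6.2e-07), Cyp4f14 was lower by 6.13, and Ggt1, which cleaves glutathione conjugates, had 0 UMIs in DC and 34 in Si8. In absorptive-like cells Adh1 (log2 9.05), Cbr3 (7.16) and Akr1b8 (2.49) were the highest in DC, and Nat8 (116 UMIs in Si8 and 0 in DC), Ugt2a3 (31 and 0) and Ggt1 (log2 -7.09) the lowest.

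Of the regulators of these enzymes, 4 are given here. Ahr, the aryl hydrocarbon receptor, was at 6.48 and 6.84 CPM in DC goblet-like cells against 1.96 and 1.77 CPM in Si8 (log2 1.39, edgeR adjusted p = 0.002), and did not pass in absorptive-like cells (log2 0.75, adjusted p = 0.088). Nfe2l2, which drives antioxidant genes, was higher in DC goblet-like cells (log2 0.66, edgeR adjusted p = 0.0017) and Hnf4a, a regulator of enterocyte genes, was lower (log2 -0.86, edgeR adjusted p = 0.00048). In absorptive-like cells neither of these 2 passed (log2 0.36 and -0.25, edgeR adjusted p = 0.10 and 0.23). In cycling-like cells Hnf4a was lower in DC (log2 -0.83, edgeR adjusted p = 0.0028) and Nfe2l2 did not pass (log2 -0.06). Nr1i2, the pregnane X receptor, did not pass in goblet-like, absorptive-like or cycling-like cells (log2 0.29, 0.07 and 0.05).

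The remaining members were rare or absent. In all kept cells 34 of the 120 had no UMI, among them 19 Cyp2, 4 Cyp3a and 3 Ugt1a genes, such as Cyp2c29, Cyp2b9 and Ugt1a8. Within a class, 49 members had no UMI in goblet-like, 45 in absorptive-like and 43 in cycling-like cells. Cyp2e1, the ethanol-oxidising P450 of liver, had 22, 52, 27 and 44 UMIs in the DC and Si8 libraries and did not pass the test in goblet-like, cycling-like or all kept cells. Cyp3a11, the main Cyp3a gene of mouse liver, had 12 UMIs, all in Si8. Cyp2b10, a target of the receptor CAR, had 4, 1, 4 and 15 UMIs. Neither Cyp3a11 nor Cyp2b10 had enough UMIs to be tested.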

How the data were processed

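Count matrices of 10x Genomics 3' v2 libraries were used as the authors deposited them: whole-number UMI counts per gene and barcode, made with Cell Ranger 2.1.1 on mm10, per the submitters' processing notes. No other upstream step is given in the sources used here.

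Of 10827 barcodes, 10522 passed a floor of 500 genes and a ceiling of 20% mitochondrial UMIs. Scrublet's own threshold marked 0.19%, too few to rely on, so the highest scores were removed at 0.8% per 1000 cells (279 barcodes). Cells were clustered within each region (scanpy 1.11.5 and leidenalg 0.10.2 in Python 3.11.15; 2000 variable genes, 30 components, resolution 1), because joint clustering with forced neighbours placed colon cells with Paneth cells; joint clustering was kept as an alternative. A cluster was named with at least 3 markers of a class among its top 50 genes and no stronger other class among its first 10. The planned class of stem-like and cycling-like cells held cycling-like clusters only. UMIs were summed per class and library and tested with edgeR 4.0.16 in R 4.3.3 (TMM scaling, a filterByExpr minimum count of 10, quasi-likelihood F-test, Benjamini-Hochberg threshold of 0.05, two-sided); DESeq2 1.42.0 was an alternative. CPM were computed from the same sums. 3' tags give 1 count per molecule whatever the transcript length. On simulated data the test recovered 81% and 97% of genes changed by 1 and 2 log2 units in goblet-like cells, and 61% and 99% in absorptive-like cells.

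Members named were the 3 with the highest mean CPM of each family (at 5 CPM or more in a library), the 6 most positive and 6 most negative fold changes per class among calls without overlap between regions, and the 6 smallest adjusted p-values of the interaction, 38 in all; others were named in counts. Further genes in the text, such as Cyp2e1, Cyp3a11, Cyp2b10 and the Gstm genes outside that rule, were chosen after their values were seen. The members, gene lists and tests were chosen with earlier results of these data known. Gene models came from GENCODE M21 (all 120 members matched) and promoter windows from RefSeq. Alternatives were other scalings, no filter, thinning to 2000 UMIs per cell, leaving out each library, the replicate number as a block, and other clusterings.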

Additional observations from a re-analysis of the deposited data

Results flagged for a closer look

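For 24 members the regional difference was not the same in absorptive-like and goblet-like cells by the test of the interaction. The values are the log2 difference of DC over Si8 in absorptive-like cells minus that in goblet-like cells. Where the value is positive, the effect was shifted towards DC in absorptive-like cells. Among the oxidising enzymes it was 5.00 for Cyp2c65, 4.30 for Cyp2c55, 2.57 for Cyp2c68, 2.37 for Cyp2d10, 1.46 for Cyp2s1, -0.95 for Cyp2j6 and -1.81 for Cyp2d26. Among the carboxylesterases it was 4.44 for Ces1d, 2.82 for Ces1e, 2.48 for Ces1f and 1.85 for Ces2a. The glutathione transferases had 2.87 for Gstm1, 2.45 for Gsta4, 1.73 for Gsta1, 1.57 for Gstm2, 1.48 for Gstt1, 1.34 for Gstm3, 0.81 for Gstt2 and 0.58 for Gstt3. The sulfotransferases had 1.43 for Sult1c2, -1.04 for Sult1b1 and -1.85 for Sult1d1, and the glucuronosyltransferases -0.65 for Ugt2b34 and -4.58 for Ugt2b35.

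Some of these rested on single libraries. Without the first DC library the interaction did not pass for Cyp2c55 (3.69, edgeR adjusted p = 0.064), Ces1d (4.17, 0.056) and Cyp2d26 (-1.97, 0.063). Without the second DC library Cyp2d26 (-1.54, adjusted p = 0.25) and Gstt3 (0.54, 0.0504) did not pass and Cyp2c65 was -0.33. Without the first Si8 library Cyp2c55 (4.04, adjusted p = 0.12) and Cyp2d26 (-1.62, 0.088) did not pass. Without the second Si8 library Ces1d (4.19, adjusted p = 1), Cyp2c55 (8.72, 0.34), Cyp2d10 (2.39, 0.064), Cyp2d26 (-2.25, 0.18), Gstm3 (1.11, 0.27), Gstt1 (1.11, 0.075) and Sult1c2 (0.96, 0.10) did not pass. In DC goblet-like cells Cyp2c55 was at 0% and 2.49% of its absorptive-like level, under the medians of the absorptive marker genes (2.29% and 5.64%). The remaining calls passed in all 4 of these fits.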

How the results depend on the processing

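The numbers of members called, 35, 33, 31, 34 and 24 in goblet-like, absorptive-like, cycling-like, all kept cells and the interaction, stayed within 1.5 times under each alternative run other than thinning each cell to 2000 UMIs, which gave 23, 14, 13 and 9 in goblet-like, absorptive-like and cycling-like cells and the interaction; thinning leaves fewer genes to test. Leaving out 1 library gave 30 to 36, 33 to 36, 27 to 30, 25 to 37 and 17 to 23. A region's lone library is then assumed to vary like those of the other region. DESeq2 gave 30, 32, 26, 35 and 19. Over all genes, calls fell by more than 1.5 times with thinning (goblet-like 5322 to 2678, absorptive-like 3663 to 1055, cycling-like 3117 to 963, all kept cells 3253 to 1826, interaction 2360 to 512), in all kept cells without the first or second DC library (1549 and 1411), in cycling-like cells without the second Si8 library (2030), and in the interaction with DESeq2 (952) and without the first DC or second Si8 library (1503 and 1265), and in absorptive-like cells with cluster 12 only (2359). They rose to 5171 in all kept cells with library totals alone.

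Leaving the 10 most abundant genes out of the total raised the summed member CPM from 982 to 1168 in DC and from 693 to 937 in Si8 goblet-like cells, from 1920 to 2117 and from 1522 to 1742 in absorptive-like cells, and from 748 to 821 in Si8 cycling-like cells.

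Signs turned for small effects. In goblet-like cells, library totals alone gave 0.20 for Cyp20a1, 0.036 for Cyp2j6, 0.084 for Gstp2 and 0.17 for Gstt3. With 1 library left out Gstp2 lay between -0.86 and 0.051 (the latter without the second DC library) and Gstt1 between -0.15 (without the first Si8 library) and 0.48; Gstp2 was 0.26 with thinning and Gstt1 -0.080 with joint clustering. In absorptive-like cells Gstp2, at 0.00 in the fit reported, was -0.0078 with RLE size factors, between -0.35 (without the first DC library) and 0.47 with 1 library left out, -0.052 with cluster 12 only and -0.0086 with it left out. Gsta3 lay between -0.015 (without the second DC library) and 0.82, Ces2a was 0.18 with thinning and Ugt2b34 0.10 with library totals alone. With DC cluster 12 only, chosen after seeing the data as were the other choices on clusters 4 and 12 and the joint clustering, the absorptive-like values turned to 1.29 for Ces2a, -1.11 for Cyp20a1, 1.41 for Cyp3a13, -2.04 for Gsta3, 1.95 for Sult1b1, 0.91 for Sult1d1, 0.41 for Ugt2b34, 0.41 for Cyp2s1 (from -0.51) and -0.88 for Sult1c2 (from 1.72). The interaction then turned to -0.64 for Gstm2, -1.49 for Gstm3, 1.15 for Sult1b1 and -1.30 for Sult1c2, and that of Cyp2c65 lay between -0.33 (without the second DC library) and 5.76. The causes were not tested.

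With the replicate number as a block, 37, 37, 38 and 37 members were called in goblet-like, absorptive-like, cycling-like and all kept cells, and over all genes 6423, 4351, 4699 and 3923. Gstp1 then passed in goblet-like cells (-0.77, edgeR adjusted p = 0.0012) and in absorptive-like cells (-0.58, 0.0064), and Gstp2 in absorptive-like cells was -0.064. The labels do not say that equal numbers share mice, there are 2 pairs, and deviations of same-numbered libraries correlated at 0.20, 0.10, 0.12 and 0.13. The interaction has the library as a term, so no further block was possible there.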
